A study of Mus musculus with 4 samples.

Results

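Srebf2 and 7 enzymes of cholesterol synthesis, Hmgcs1, Idi1, Fdps, Fdft1, Sqle, Lss and Cyp51, were examined in sorted intestinal stem cells of mice with and without CREPT, the protein encoded by Rprd1b. The 8 genes were chosen by symbol and not by their values, though with earlier results of these data known. All 8 were among the 18436 genes of the deposited table, and all 8 passed the filter on low values that left 12621 genes. The genes of cholesterol uptake are not among the 8, and are described further on from a separate list. Cells were taken from crypts of Lgr5-EGFP-IRES-creERT2 mice, in which the Lgr5 gene drives both GFP and a tamoxifen-inducible Cre recombinase, on a C57BL/6 background. The Lgr5-CREPTWT group carried that allele alone, and the Lgr5-CREPTKO group also carried CREPT fl/fl alleles, in which Cre removes exon 3 of Rprd1b. Mice of 6-8 weeks received tamoxifen in both groups, at 1 mg a day for 5 days, and Lgr5-GFPhigh cells were sorted on day 7. Each group held 2 mice, called mouse 1 and mouse 2 after the numbers of their samples. The allele is expressed in a mosaic pattern, so only the crypt cells that carry GFP and Cre were sampled. The sex of each mouse is not given in the sources used here.

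Cholesterol is built from acetyl-CoA through mevalonate, isoprenoid pyrophosphates, squalene and lanosterol. The transcription factor SREBP-2, the product of Srebf2, is held in the endoplasmic reticulum membrane by Insig proteins when sterols are plentiful. When sterols are scarce, Scap carries it to the Golgi, where proteases release the part that enters the nucleus. It then activates the genes of sterol synthesis. Intestinal epithelial cells both make cholesterol and take it up from the lumen, and proliferating crypt cells need it for new membranes.

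The upstream sequences of 3 of the 8 genes are shown because SREBP-2 acts through short promoter elements next to binding sites of the factor NF-Y. They are the 250 bases before the annotated start (RefSeq, GRCm38.p6, written in the direction of the gene), for Srebf2 at chr15:82147019-82147268 (plus strand), for Hmgcs1 at chr13:119690101-119690350 (plus strand) and for Idi1 at chr13:8885356-8885605 (plus strand). Capitals mark TCACNCCA, the core of the sterol regulatory element, and CCAAT, read as ATTGG where it lies on the opposite strand.
Srebf2: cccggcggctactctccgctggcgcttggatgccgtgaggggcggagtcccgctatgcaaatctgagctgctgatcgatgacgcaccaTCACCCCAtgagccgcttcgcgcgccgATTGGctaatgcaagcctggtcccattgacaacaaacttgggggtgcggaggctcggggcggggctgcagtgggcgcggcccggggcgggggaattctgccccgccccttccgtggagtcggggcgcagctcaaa
Hmgcs1: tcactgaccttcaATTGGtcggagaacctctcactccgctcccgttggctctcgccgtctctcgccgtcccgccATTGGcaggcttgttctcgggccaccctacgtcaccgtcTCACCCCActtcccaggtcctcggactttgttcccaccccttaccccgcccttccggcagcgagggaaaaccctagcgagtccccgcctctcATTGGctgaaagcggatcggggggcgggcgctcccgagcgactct
Idi1: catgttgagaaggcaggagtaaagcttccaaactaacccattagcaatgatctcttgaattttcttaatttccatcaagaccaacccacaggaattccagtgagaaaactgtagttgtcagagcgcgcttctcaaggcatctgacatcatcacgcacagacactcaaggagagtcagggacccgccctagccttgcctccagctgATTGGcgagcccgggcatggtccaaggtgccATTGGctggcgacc
The windows of Srebf2 and Hmgcs1 each held 1 TCACNCCA, starting 162 and 137 bases before the start. No match to these letters was found within this window for Idi1, Lss (chr10:76531355-76531604, plus strand) or Cyp51 (chr5:4104698-4104947, minus strand). The Lss window ends inside the gene span given below for Lss, which begins at 76531565. CCAAT was present in all 5 of the windows, with 8 matches in all, of which Hmgcs1 held 3, at 237, 176 and 45 bases before the start. Among the windows of the same length of all 32851 promoters, 3.67% held TCACNCCA and 33.8% held CCAAT on either strand. Of the 16 sterol synthesis genes that matched a window, 15 held CCAAT in at least 1 window and 2 held TCACNCCA, Hmgcs1 and Msmo1. Pmvk and Dhcr7 had more than 1 window, some without CCAAT, whereas the shares above count single windows. The 2 motifs do not overlap in these windows, and a match to the letters is not a test of binding.

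The targeted gene, Rprd1b, stood at 17.69 and 18.09 FPKM (a read level corrected for transcript length and for the size of the library) in the Lgr5-CREPTWT mice and at 6.65 and 7.36 in the Lgr5-CREPTKO mice. Its log2 fold change was −1.29 ± 0.0946 (SE), with an adjusted p of 0.0280 by limma. FPKM values summed to between 468830 and 499327 per library, and the FPKM worth of 1 read, seen in low genes, was 0.984 to 1.03 of that in Lgr5-CREPTWT mouse 1 (a lower worth means a deeper library), while the absolute depth is unknown. The sorted cells carried stem cell markers, with Lgr5 at 37.7 to 60.1 FPKM and Olfm4 at 4932 to 5351 FPKM. All 8 stem cell markers were higher in both Lgr5-CREPTKO mice than in both Lgr5-CREPTWT mice (25.6% of all genes). By limma, 0 of them were called and 5 had an unadjusted p below 0.05 (24.5% of all genes in either direction). The 10 enteroendocrine markers summed to 187 and 272 FPKM against 70.6 and 79.7 (5 called lower). The 8 goblet markers summed to 1473 and 2457 FPKM against 809 and 941 (1 called lower). By the adjusted p of limma alone, 2.67% of all genes were lower. The 8 tuft markers summed to 22.4 and 46.1 FPKM against 18.0 and 6.88. All 6 that were tested were lower in both Lgr5-CREPTKO mice (31.0% of all genes), with 0 called by limma and 4 at an unadjusted p below 0.05. The 7 stromal and endothelial markers summed to at most 0.56 FPKM in any library and none was tested. In bulk samples, fewer cells of a type and less RNA per cell cannot be told apart. These shifts in markers run with genotype beside every comparison below, and their part in the results was not tested.

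None of the 8 genes passed the test. A gene was called at an adjusted p below 0.05 by limma and an absolute log2 fold change above 1. In either direction, 1.14% of the genes tested reached this threshold. In the counts of gene lists, a call rests on the adjusted p alone. Without the limit on fold change, 0 of the 8 were called against a background of 2.67% of genes lower and 0.412% higher in Lgr5-CREPTKO cells, and at an unadjusted p below 0.05, which 24.5% of all genes reached, 1 of the 8 passed, Idi1. The median log2 fold change was −0.13 over the 8 genes, −0.18 over the 7 enzymes and −0.01 over all genes tested. It was 0.06 without Lgr5-CREPTWT mouse 1 and −0.0071 without Lgr5-CREPTKO mouse 1, so its sign rested on the former. In 3 of the 8 (Idi1, Fdps and Cyp51) both Lgr5-CREPTKO values lay below both Lgr5-CREPTWT values, as in 31.0% of all genes, and in 1 (Srebf2) both lay above, as in 25.6%. The genotypes overlapped in the remaining 4. With 2 mice against 2, an exact two-sided permutation test of a single gene cannot give a p below 0.333, so the adjusted p-values rest on the spread that limma pools across genes.

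**Figure D1:**
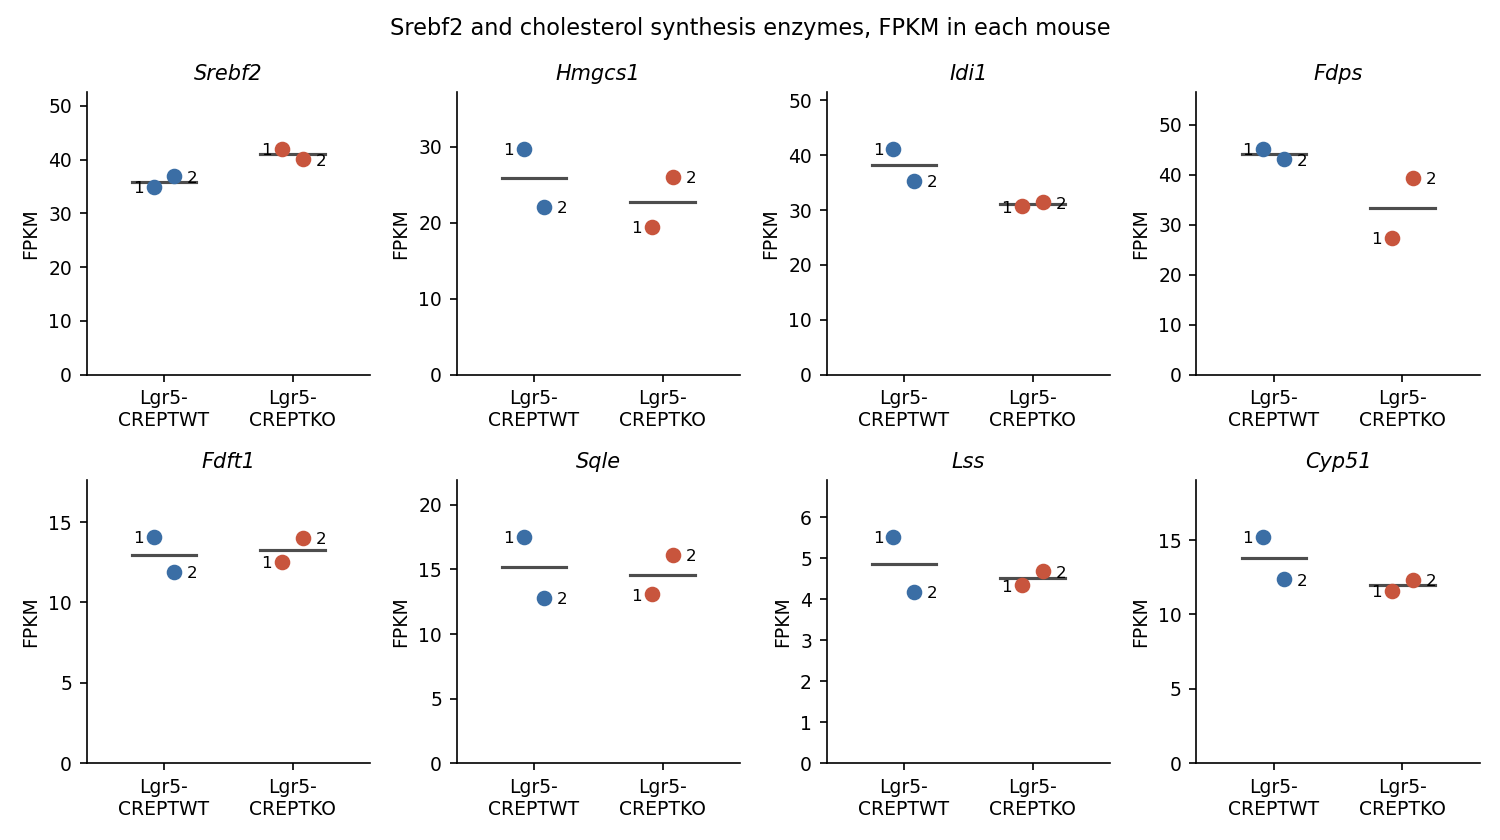
FPKM of Srebf2 and the 7 enzymes (y axis, from 0) in each mouse, with Lgr5-CREPTWT in blue and Lgr5-CREPTKO in red, the mouse number beside each point and a bar at the genotype mean. The genotypes separate for Srebf2, Idi1, Fdps and Cyp51 and overlap for the other 4, and each of the 7 enzymes is higher in Lgr5-CREPTWT mouse 1 than in mouse 2.

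Srebf2 (chr15:82147269-82205379, plus strand) was the member with the least spread. It measured 34.88 and 36.86 FPKM in the Lgr5-CREPTWT mice and 42.06 and 40.03 in the Lgr5-CREPTKO mice. Both Lgr5-CREPTKO mice were higher, and the mean moved from 35.9 ± 1.40 to 41.0 ± 1.44 FPKM (SD, n = 2 each), or 114% of the Lgr5-CREPTWT mean. The log2 fold change of 0.19 ± 0.0749 (SE) had a 95% interval that just reached 0 and did not pass after adjustment (adjusted p = 0.206 by limma). Its ratio to Srebf1, which encodes the related factor SREBP-1, was 1.36 and 1.62 against 1.48 and 1.42, with the genotypes overlapping.

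The genes that encode, hold, carry and cut the SREBP factors, Srebf2 included, gave 0 calls among 11 tested by limma, 2 at an unadjusted p below 0.05 (both higher, against 24.5% of all genes in either direction) and a median log2 fold change of 0.13. In 6 of the 11, both Lgr5-CREPTKO mice were above both Lgr5-CREPTWT mice (25.6% of all genes), and in 1 both were below (31.0% of all genes). Scap, the escort that carries SREBP factors to the Golgi, had the smallest adjusted p of the 11. It measured 27.47 and 26.90 FPKM against 36.35 and 34.61, a log2 fold change of 0.38 ± 0.0729 (SE, adjusted p = 0.0656 by limma). Srebf1 measured 25.57 and 22.72 FPKM against 28.35 and 28.26 (log2 fold change 0.23, adjusted p = 0.203 by limma). Insig1, which retains the Scap complex and is itself a target of SREBP factors, went the other way on average. It measured 21.72 and 15.33 FPKM against 13.53 and 16.41, with overlapping genotypes (adjusted p = 0.422 by limma). Mbtps1, the site-1 protease and the most abundant of the list, had a mean of 44.5 FPKM over the 4 mice and a log2 fold change of 0.15.

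The first 3 enzymes make the mevalonate precursor and the isoprenoid units. Hmgcs1 (chr13:119690351-119708260, plus strand), the cytosolic HMG-CoA synthase, measured 29.76 and 22.09 FPKM in the Lgr5-CREPTWT mice and 19.48 and 26.03 in the Lgr5-CREPTKO mice. Its genotypes overlapped, since the second value of each lay inside the range of the other. The log2 fold change was −0.18 ± 0.199 (SE, adjusted p = 0.620 by limma), and the 95% interval ran from 0.617-fold to 1.26-fold. Its spread within genotypes exceeded that of 88.3% of the genes tested.

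Idi1 (chr13:8885606-8892396, plus strand) interconverts both isomers of the basic isoprenoid unit. It measured 41.23 and 35.29 FPKM in the Lgr5-CREPTWT mice against 30.68 and 31.41 in the Lgr5-CREPTKO mice. Both Lgr5-CREPTKO mice were lower, and the mean was 38.3 ± 4.20 against 31.0 ± 0.516 FPKM (SD, n = 2 each). It was the member with the smallest adjusted p, at 0.159 by limma, with a log2 fold change of −0.29 ± 0.098 (SE) and a 95% interval from 0.685-fold to 0.972-fold. The log2 fold change was −0.18 without Lgr5-CREPTWT mouse 1 and −0.40 without Lgr5-CREPTWT mouse 2. Of the 50-base stretches of its gene model, 17.7% also occur in the gene model Gm13502 (GENCODE M21), which is no row of the table, so some of its reads may have been shared.

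Fdps (chr3:89093588-89101967, minus strand) makes farnesyl pyrophosphate, the branch point towards squalene, dolichol, ubiquinone and prenylated proteins. It measured 45.21 and 43.03 FPKM in the Lgr5-CREPTWT mice and 27.41 and 39.41 in the Lgr5-CREPTKO mice. Both Lgr5-CREPTKO mice were lower, with mouse 1 far below mouse 2. Its log2 fold change of −0.42 ± 0.178 (SE) was the lowest of the 8 (adjusted p = 0.233 by limma), with a 95% interval from 0.545-fold to 1.03-fold. Without Lgr5-CREPTKO mouse 1 it was −0.16, and without Lgr5-CREPTKO mouse 2 it was −0.68. Fdps also shares the most sequence of the 8 with other gene models, 26.2% of its 50-base stretches.

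The next 4 enzymes take farnesyl pyrophosphate to squalene and on to the first sterols. Fdft1 (chr14:63145150-63181687, minus strand), squalene synthase, measured 14.07 and 11.89 FPKM against 12.52 and 14.03, and Sqle (chr15:59315092-59331193, plus strand), the squalene epoxidase, 17.51 and 12.81 against 13.07 and 16.14. Neither separated the genotypes. For Fdft1 the 95% interval ran from 0.826-fold to 1.27-fold (adjusted p = 0.894 by limma), and for Sqle from 0.699-fold to 1.35-fold (adjusted p = 0.913 by limma). The log2 fold change of Sqle, −0.04, became 0.03 when libraries were scaled to equal sums of FPKM. In Fdft1, 9.38% of the 50-base stretches are shared with Gm6781.

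Lss (chr10:76531565-76557139, plus strand), which closes squalene epoxide into lanosterol, was the least abundant member. It measured 5.52 and 4.18 FPKM against 4.34 and 4.68, again with overlap (log2 fold change −0.08 ± 0.162 SE, adjusted p = 0.797 by limma). Cyp51 (chr5:4080674-4104697, minus strand), the lanosterol demethylase, measured 15.20 and 12.36 FPKM against 11.56 and 12.33. Both of its Lgr5-CREPTKO values were lower, the second by only a narrow margin. Its log2 fold change was −0.19 ± 0.125 (SE, adjusted p = 0.405 by limma), with a 95% interval from 0.7004-fold to 1.09-fold. The log2 fold change was −0.048 without Lgr5-CREPTWT mouse 1 and −0.34 without Lgr5-CREPTWT mouse 2.

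By length-scaled level in the Lgr5-CREPTWT mice, Fdps came first with a mean of 44.1 FPKM, followed by Idi1 at 38.3, Srebf2 at 35.9 and Hmgcs1 at 25.9. Sqle, Cyp51 and Fdft1 followed at 15.2, 13.8 and 12.98 FPKM, and Lss was last at 4.85. The ranges of Idi1 and Srebf2 overlapped, and their order differed between the Lgr5-CREPTWT mice. The ranges of Sqle, Cyp51 and Fdft1 also overlapped. Within each Lgr5-CREPTWT mouse, though, Sqle was above Cyp51 and Cyp51 was above Fdft1. Over the 4 mice, the members stood between the 27.3 percentile (Lss) and the 83.1 percentile (Fdps) of the genes tested. The 7 enzymes together summed to 168.5 and 141.7 FPKM in the Lgr5-CREPTWT mice and to 119.1 and 144.0 in the Lgr5-CREPTKO mice. The second Lgr5-CREPTKO mouse thus exceeded the second Lgr5-CREPTWT mouse.

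Of the pathway from acetyl-CoA to cholesterol, 19 enzymes were counted, the 7 members included, and all 19 were tested. None of the 19 was called by limma in either direction. At an unadjusted p below 0.05, 7 were lower and 0 were higher in Lgr5-CREPTKO cells. Of all 12621 genes tested, 1916 were lower and 1170 higher at that level. The median log2 fold change of the 19 was −0.22, against −0.01 over all genes tested. It was not recomputed with 1 mouse left out. That of the 8 members, 7 of them among the 19, was 0.06 without Lgr5-CREPTWT mouse 1. Both Lgr5-CREPTKO mice lay below both Lgr5-CREPTWT mice for 11 of the 19 (31.0% of all genes) and above for 0 (25.6% of all genes), while 8 overlapped.

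Dhcr7, the reductase of the sterol ring late in the pathway, measured 16.53 and 15.39 FPKM against 15.20 and 16.55 (log2 fold change −0.01, adjusted p = 0.970 by limma). Its genotypes overlapped almost fully, and its sign changed with the scaling. Msmo1, the sterol methyl oxidase, measured 14.23 and 10.53 FPKM against 8.96 and 12.23, with overlap (adjusted p = 0.569 by limma). Lbr, the most abundant of the 19 with a mean of 54.7 FPKM and also a protein of the nuclear envelope, had a log2 fold change of 0.00.

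A few enzymes outside the rule for named genes were picked after their values were seen. Mvk, the mevalonate kinase, measured 7.91 and 9.80 FPKM against 5.14 and 6.46, and Mvd, the mevalonate decarboxylase, 13.75 and 14.44 against 7.19 and 11.07. Both were lower in each Lgr5-CREPTKO mouse, with adjusted p-values of 0.124 and 0.152 by limma. Ebp, the sterol isomerase, measured 36.77 and 38.21 FPKM against 28.73 and 28.63 (log2 fold change −0.38, adjusted p = 0.0627 by limma). Its adjusted p was below 0.05 by limma once genes named as small RNAs and gene models with numbered Gm symbols were left out together.

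**Figure D2:**
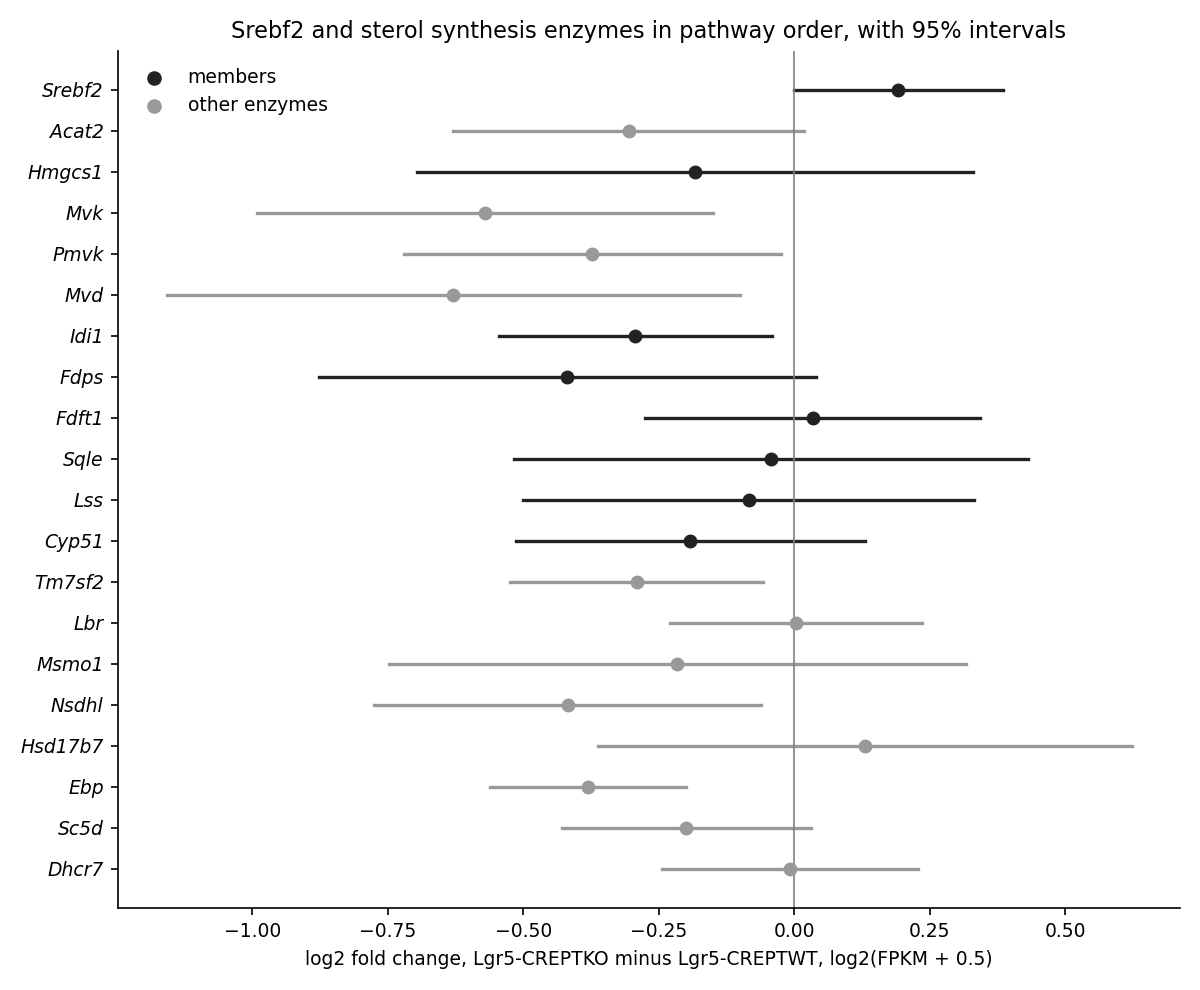
Log2 fold change of Srebf2 and the 19 sterol synthesis enzymes, Lgr5-CREPTKO minus Lgr5-CREPTWT on log2(FPKM + 0.5) (x axis), in pathway order from top to bottom, with 95% intervals from limma as lines and members in black. Of the 19 enzymes, 16 lie below 0 and 3 above, from −0.63 to 0.13, and none passed the adjusted threshold. Of all 12621 genes tested, 6605 lie below 0 and 6016 above.

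The 7 enzymes also differed between mice of one genotype, in a shared order. All 7 were higher in Lgr5-CREPTWT mouse 1 than in mouse 2 and higher in Lgr5-CREPTKO mouse 2 than in mouse 1, an order that 26.9% of all genes showed. This order was noticed in the values and is given as a description, since the genes share the same 4 libraries. On the log2 scale the gap between the Lgr5-CREPTWT mice was 0.42 for Hmgcs1, 0.44 for Sqle, 0.36 for Lss and 0.07 for Fdps. The gap between the Lgr5-CREPTKO mice was 0.41 for Hmgcs1, 0.52 for Fdps, 0.29 for Sqle and 0.03 for Idi1. The median residual SD of the 8 members was 0.169 on the log2 scale, against 0.109 over all genes tested.

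Srebf2 did not share the order of the enzymes. It was lower in Lgr5-CREPTWT mouse 1 than in mouse 2, by 0.08 on the log2 scale, and lower in Lgr5-CREPTKO mouse 2 than in mouse 1, by 0.07. Among the 12 sterol synthesis enzymes counted that are not members, 4 had the order of the 7, Msmo1 and Dhcr7 among them. Insig1 had it too. Of the 8 Paneth cell markers, 6 had the same order, and their sum was 1452 and 1063 FPKM in the Lgr5-CREPTWT mice and 860 and 2662 in the Lgr5-CREPTKO mice. None of the 12 enterocyte markers had it. Whether cells sorted along with the stem cells played a part in this order was not tested.

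**Figure D3:**
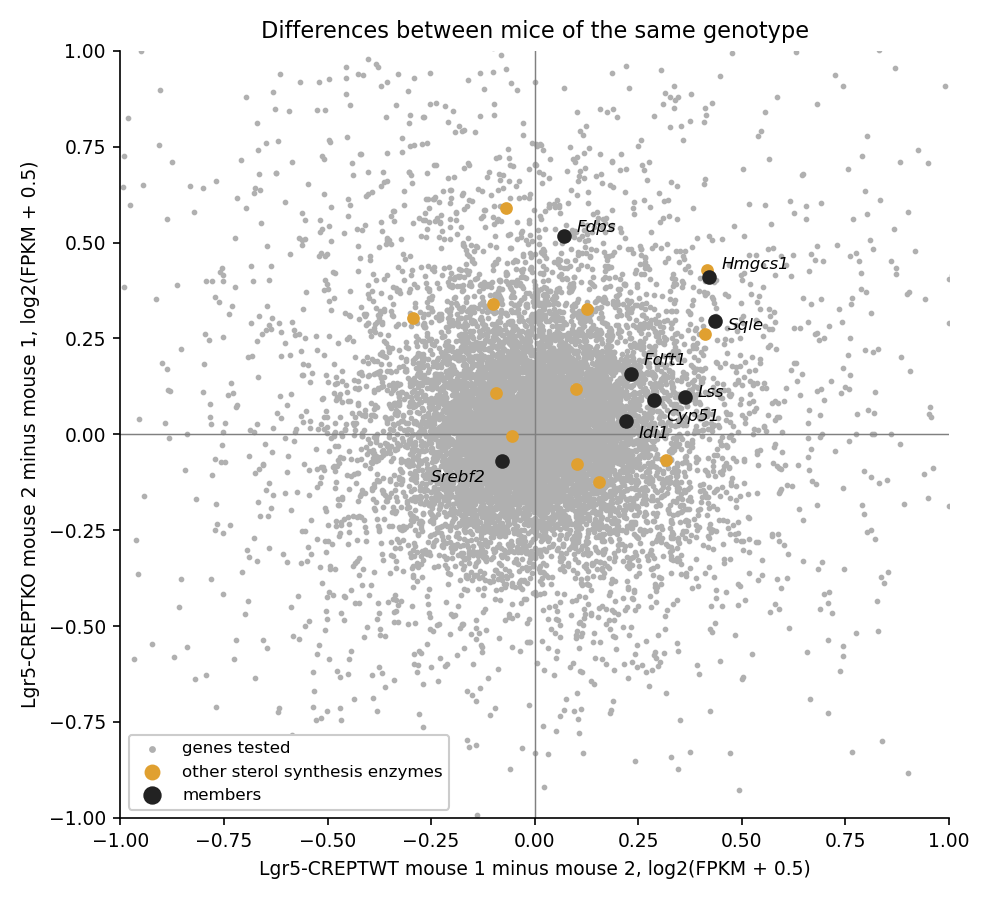
Difference between the Lgr5-CREPTWT mice (x axis, mouse 1 minus mouse 2) and between the Lgr5-CREPTKO mice (y axis, mouse 2 minus mouse 1) on log2(FPKM + 0.5), for all genes tested that fall within the axes (grey), the other sterol synthesis enzymes (orange) and the members (black). The 7 enzymes lie in the upper right part, up to 0.44 and 0.52 from 0, and Srebf2 lies in the lower left part near the centre.

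Of the genes of sterol uptake and trafficking, 16 were counted and 15 were tested. Of these 15, 0 were called by limma, while an unadjusted p below 0.05 was reached by 1 in the lower and 3 in the higher direction (24.5% of all genes in either), with a median log2 fold change of 0.16. In 6 of the 15 both Lgr5-CREPTKO mice were above both Lgr5-CREPTWT mice (25.6% of all genes), and in 1 both were below (31.0% of all genes). Npc2, a lysosomal cholesterol carrier and the most abundant of these genes at a mean of 47.3 FPKM, had a log2 fold change of −0.02, with a sign that changed with the scaling. Lrp1, a large endocytic receptor chosen after its values were seen, measured 14.09 and 10.36 FPKM against 22.84 and 19.08 (adjusted p = 0.0856 by limma). Lrp8 was below the filter, at 0.36 to 0.54 FPKM.

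**Figure D4:**
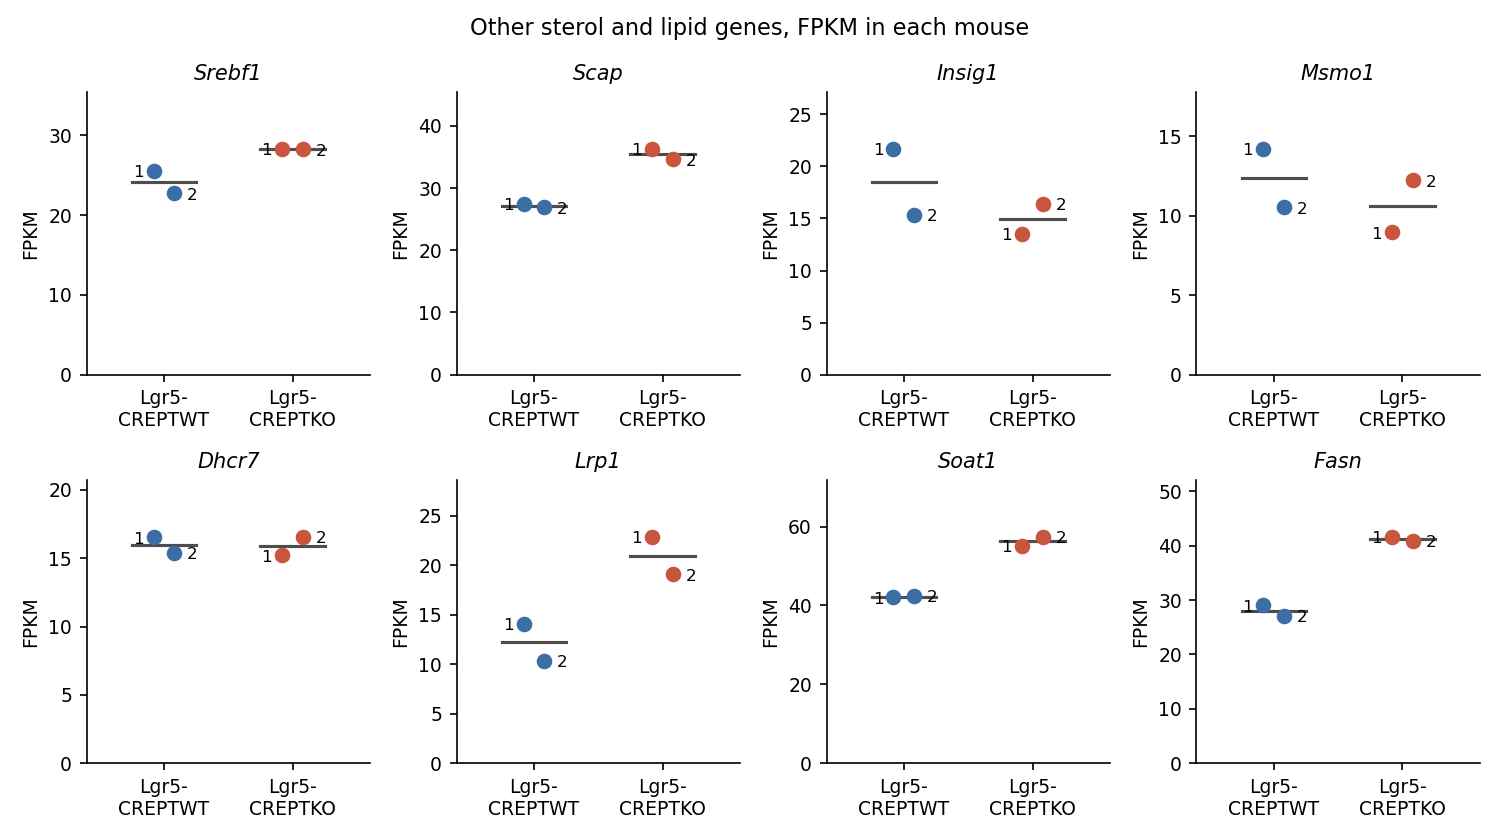
FPKM (y axis, from 0) of 8 other sterol and lipid genes in each mouse, with Lgr5-CREPTWT in blue, Lgr5-CREPTKO in red, the mouse number beside each point and a bar at the genotype mean. Srebf1, Scap, Lrp1, Soat1 and Fasn are higher in both Lgr5-CREPTKO mice, while Insig1, Msmo1 and Dhcr7 overlap. Lrp1 and Soat1 were added after their values were seen.

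Genes of sterol efflux, esterification and oxysterols gave 0 calls by limma among 11 tested, with a median log2 fold change of 0.12. At an unadjusted p below 0.05, 1 was lower and 2 were higher (24.5% of all genes in either direction). Abca1, the transporter that exports cholesterol to lipid-poor apolipoproteins, was low, at 1.04 and 0.69 FPKM against 1.49 and 1.14. Nr1h3, which encodes the oxysterol receptor LXR alpha, measured 15.52 and 15.25 FPKM against 17.24 and 16.81. Both were higher in each Lgr5-CREPTKO mouse, with adjusted p-values of 0.360 and 0.334 by limma. Soat1, which esterifies cholesterol for storage, was added after its values were seen. It measured 42.05 and 42.42 FPKM against 55.15 and 57.36 (log2 fold change 0.41 ± 0.0679 SE, adjusted p = 0.0540 by limma). Soat1 had an adjusted p below 0.05 by limma under each of the 3 other scalings, and without small RNA and numbered Gm symbols. Apoa1, also an enterocyte marker, had the highest mean of the list at 65.9 FPKM and varied most between mice of one genotype, from 38.68 to 79.49 and from 38.48 to 107 FPKM. Abcg1, Ch25h, Cyp7b1 and Cyp46a1 were below the filter.

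The isoprenoid branches that leave the pathway at and after Fdps gave 0 calls by limma among 15 tested, with a median log2 fold change of 0.02. At an unadjusted p below 0.05, 1 of them was lower (24.5% of all genes in either direction). Coq2, which prenylates the ubiquinone precursor, was the most abundant at a mean of 50.6 FPKM and had a log2 fold change of 0.03. Of the ketone body enzymes, which use HMG-CoA in mitochondria, 4 were counted, with 0 calls by limma. At an unadjusted p below 0.05 there were 0, again against 24.5% of all genes. Bdh1, the most abundant of the 4 at a mean of 100.3 FPKM, had a log2 fold change of 0.11, which was 0.023 without Lgr5-CREPTKO mouse 1 and 0.20 without Lgr5-CREPTKO mouse 2.

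Fatty acid synthesis, the arm of SREBP control attributed mainly to SREBP-1, held a gene called higher by the adjusted p alone. Of 13 tested, 0 were called lower (2.67% of all genes) and 1 higher (0.412% of all genes) by limma. The median log2 fold change of the 13 was 0.03. At an unadjusted p below 0.05, 2 were lower and 2 higher (24.5% of all genes in either direction). Fasn (chr11:120805958-120825166, minus strand), the fatty acid synthase, measured 29.04 and 27.04 FPKM in the Lgr5-CREPTWT mice and 41.59 and 40.93 in the Lgr5-CREPTKO mice. It rose to 147% of the Lgr5-CREPTWT mean, from 28.0 ± 1.41 to 41.3 ± 0.467 FPKM (SD, n = 2 each), a log2 fold change of 0.55 ± 0.0755 (SE, adjusted p = 0.0396 by limma) that is under the limit of 1 on fold change. The call was lost when any 1 of the 4 mice was left out (adjusted p 0.183 to 0.305), without the filter on low values (0.123) and without the intensity trend (0.0843). Fads2, a fatty acid desaturase and the most abundant of the genes counted at a mean of 219 FPKM, had a log2 fold change of 0.00. Scd1 and Thrsp were below the filter. Over the 7 lists, 88 of the 96 genes counted were tested, of which Fasn alone was called by the adjusted p. Among all genes tested, 2.67% were called lower and 0.412% higher that way.

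**Figure D5:**
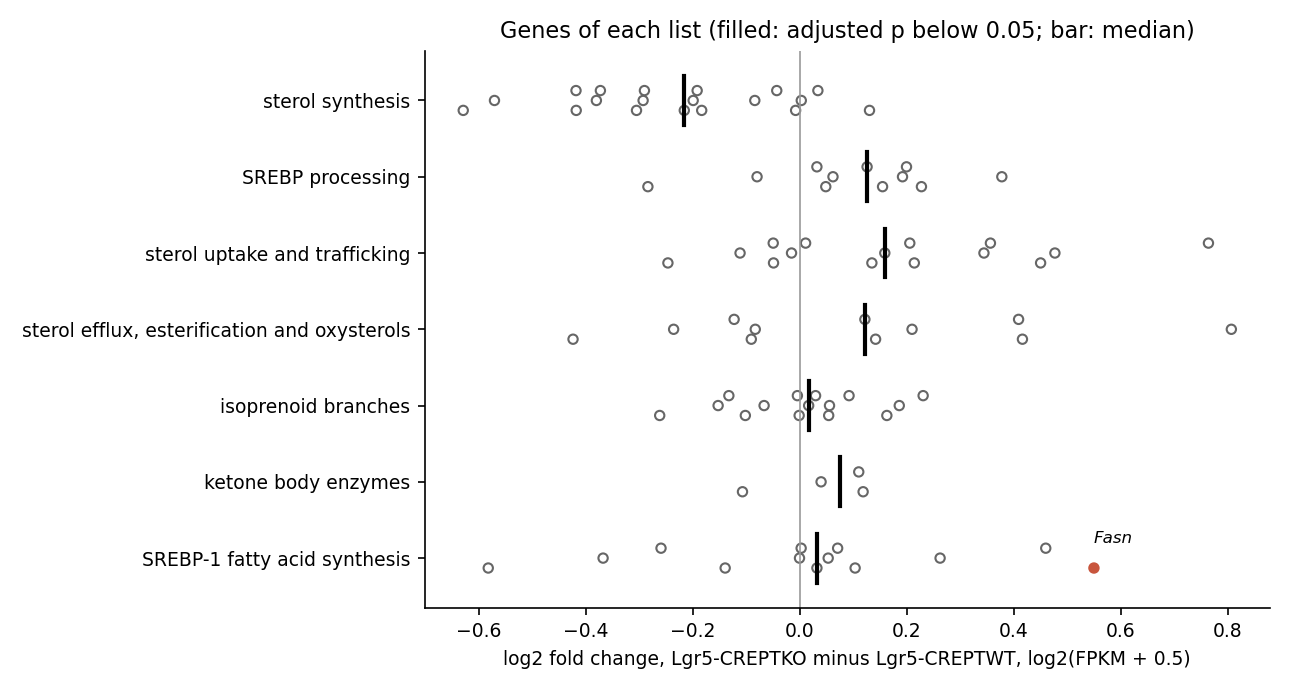
Log2 fold change (x axis, Lgr5-CREPTKO minus Lgr5-CREPTWT on log2(FPKM + 0.5)) of each gene counted and tested in the 7 lists, with a bar at each list's median and filled points where the adjusted p was below 0.05. Medians run from −0.22 for sterol synthesis to 0.16 for uptake and trafficking, and the filled point is Fasn at 0.55.

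Over the 4 mice, the genes whose profile lay nearest to the mean of the 7 enzymes were Nanos1, B430212C06Rik, Phka2, Tubb4b and Chuk. Their root mean square distances from that mean were 0.015 to 0.026 on the log2 scale, after each gene was centred on its own mean. The members themselves lay at 0.051 for Cyp51 to 0.179 for Fdps, with Srebf2 at 0.246. The genes named were picked as the nearest of all genes tested outside the members. The members' distances therefore cannot be judged against theirs. The genes nearest to Srebf2 were Smad3, R3hdm2, Ghdc, Khsrp and Lzic, at distances of 0.006 to 0.009. With 4 points per gene, the likeness is given as a description only.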

How the data were processed

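RNA from sorted Lgr5-GFPhigh cells of 2 Lgr5-CREPTWT and 2 Lgr5-CREPTKO samples was compared, grouped by the labels. The authors deposited FPKM values for 18436 gene symbols. The study's methods name Bowtie2, RSEM and GRCm38.p6 in an RNA-seq section that describes crypts and intestines, while the sort of Lgr5-GFPhigh cells for RNA-seq is described elsewhere. The submitters' processing notes also list HISAT and mm10, and versions are not given in the sources used here. FPKM is relative within a library and carries no counts, so the study's count model could not be used and its thresholds were applied to limma 3.58.1 in R 4.3.3 (lmFit and eBayes with an intensity trend, Benjamini-Hochberg adjustment) on log2(FPKM + 0.5), for 12621 genes, those that averaged 0.5 FPKM or more. Fold changes on this scale understate those of low genes.

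The study gives 2 mice per genotype for these libraries. The p-values set genotype differences against a spread between mice that limma estimates from those mice and from a trend pooled across genes. Same-numbered samples were not treated as pairs. The 8 members and all lists were chosen with earlier results of these data known. Named genes are the members, Rprd1b, a set list of regulators, list genes with an adjusted p below 0.05, the most abundant gene of each list, the nearest profiles and markers; exceptions are said in the text. Some genes of the lists are not reported here, and every count, median and plot of a list leaves them out, whatever their values were. Of the list symbols, Spring1 was not found as a row. Coordinates and promoters are from RefSeq on GRCm38.p6, which had a window for 5 of the 8 members, and shared stretches were counted in GENCODE M21. The motifs were chosen after the promoters were seen. The fit was tested on simulated data. Pseudocount, filter, scaling, intensity trend, small RNA and numbered Gm symbols, the replicate block, the call rule and each mouse left out were varied. Python 3.11.15 with pandas 2.3.3 was used for the remaining steps.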

Additional observations from a re-analysis of the deposited data

How the results depend on the processing

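None of the 8 members had an adjusted p below 0.05 in any of the 14 alternative fits. Over all genes tested, 128 were called lower and 16 higher. These counts became 0 and 0 without the filter on low values, 4 and 0 without the intensity trend, 337 and 52 by the adjusted p alone, and 0 to 0 in both directions when any 1 mouse was left out, where the lone sample is assumed to vary like the other genotype. Same-numbered mice did not deviate together (correlation −0.0266 across genes) and share only a number. With that number as a replicate block, 8 were called higher. The 1 gene called among those counted in the lists, Fasn, became 0 without the filter, without the trend, with the replicate block (Fasn at an adjusted p of 0.0585 by limma) and, 0 to 0, with 1 mouse left out. It became 2 with upper quartile scaling, equal sums of FPKM or quantile normalization (Soat1 added). It became 3 without small RNA and numbered Gm symbols (Ebp and Soat1 added). Rprd1b lost its call without the filter, without the trend and without any 1 mouse, and the replicate block changed no other call among the 24 genes refitted.

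The members' median log2 fold change ran from −0.301 to 0.0624 when 1 mouse was left out. Of 336 values of the 24 refitted genes, 25 changed sign, none of them in a gene that was called. With equal sums of FPKM, Sqle was 0.0325, Dhcr7 0.0680 and Npc2 0.0620. With upper quartile scaling Dhcr7 was 0.0300 and Npc2 0.0231, and with quantile normalization 0.0109 and 0.0290. With 1 mouse left out, log2 fold changes ran from −0.394 to 0.0274 for Hmgcs1, −0.0831 to 0.151 for Fdft1, −0.261 to 0.175 for Sqle, −0.266 to 0.0975 for Lss, −0.0673 to 0.0517 for Dhcr7, −0.0755 to 0.0810 for Lbr, −0.0583 to 0.0273 for Npc2, −0.522 to 0.942 for Apoa1, −0.0159 to 0.0749 for Coq2 and −0.0372 to 0.0422 for Fads2. Among genes that kept their sign, the range was −0.430 to −0.00186 for Msmo1, −0.529 to −0.0395 for Insig1, −0.336 to −0.0480 for Cyp51, 0.0235 to 0.197 for Bdh1, 0.230 to 0.602 for Abca1, 0.144 to 0.311 for Srebf1, −0.404 to −0.182 for Idi1 and −0.676 to −0.161 for Fdps. The cause of these changes was not tested.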
